A study of Mus musculus with 12 samples.

Results

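The genes described here encode the extracellular matrix of the brain, its vessels and its coverings. They are 40 genes chosen by name from the 57010 genes of the count table: 6 fibrillar collagen chains, 3 collagens of basement membranes, 3 chains of collagen VI, 2 other collagens, 7 laminin chains, 4 lecticans, 3 link proteins, 2 tenascins, 3 small leucine-rich proteoglycans and 7 other glycoproteins. All 40 passed the low-count filter, which kept 19166 genes. They were measured by bulk RNA sequencing of 12 libraries of mouse cerebellum (crus 1, by the series title). The groups were Fmr1 knockout mice injected intraperitoneally with poly(I:C) (treated knockout, n = 4), Fmr1 knockout mice given saline, whose titles say sham (saline knockout, n = 4), and FVB mice given saline (n = 4). FVB is the inbred background strain. Fmr1 encodes FMRP, the RNA-binding protein lost in fragile X syndrome, while poly(I:C), an artificial double-stranded RNA, sets off antiviral responses. No FVB group with poly(I:C) is analysed here, so a response particular to the knockout and one that FVB mice would share cannot be told apart. The sources used here do not give the allele, age, sex, dose or interval after injection. Whether the 4 samples of a group are 4 animals is not labelled, so a p-value refers to the spread among these samples, which may be technical. Values listed per group are in the order of replicates 1 to 4.

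The matrix of the brain differs from that of other organs. Within the tissue, hyaluronan carries lecticans, which are chondroitin sulphate proteoglycans held by link proteins and cross-linked by tenascins, and this mesh condenses into perineuronal nets around some neurons, including those of the deep cerebellar nuclei. Laminins and collagen IV form the basement membranes of vessels and of the pia, while fibrillar collagens come mostly from fibroblasts of the meninges and larger vessels. In bulk RNA, fewer cells of a type and less RNA per cell cannot be told apart.

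Treated knockout libraries held 39.4 to 56.4 M counts, saline knockout libraries 38.7 to 50.2 M and FVB libraries 35.2 to 48.7 M. Fmr1 was at 36.4% of the FVB level in the treated knockout and at 33.4% in the saline knockout. The tissue label was checked on 10 markers of granule and Purkinje cells, which summed to 9584 to 10498 normalised counts per 1 M counts (CPM) in the treated knockout, 10033 to 11120.0 CPM in the saline knockout and 9952 to 10862 CPM in FVB. The 9 markers of brainstem and deep nuclei summed to 214 to 246, 206 to 252 and 229 to 266 CPM in the same groups. For treated against saline knockout 5 of them were tested, 2 with a positive and 3 with a negative fold change. The 1 called, or 20% against 2.87% of all tested genes, was Th, the enzyme that starts catecholamine synthesis. Th was at 3.10 CPM in the treated knockout, against 6.39 CPM in the saline knockout (edgeR, adjusted p = 8.84e-04), and its part in the results was not tested. Ttr, a defining gene of the choroid plexus, stood at 2167 to 4156 CPM in saline knockout 2 and treated knockout 2 and 3, and at 1.63 to 65.3 CPM in the other 9 libraries. Many of the results, though not all, are also given without these 3 libraries, which leaves 2 treated knockout, 3 saline knockout and 4 FVB libraries.

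Per kilobase of exon, the scale on which genes can be compared, 1 gene led the set. Sparc, a collagen-binding glycoprotein of astrocytes and endothelium, averaged 368, 340.2 and 333 CPM per kb in the treated knockout, saline knockout and FVB, and held 58.6% to 68.7% of the summed CPM per kb of the 40 genes in a library. Hapln4, a link protein of nets and of inhibitory synapses, followed at 61.5, 58.7 and 64.95 CPM per kb. Bcan, the lectican brevican, averaged 27.7, 29.8 and 33.1 CPM per kb in the same groups. Both stood above every collagen, of which Col18a1, a basement membrane collagen, was the highest at 12.4, 11.9 and 13.01 CPM per kb. The lowest means over 12 libraries were those of Acan (0.190 CPM per kb), Postn (0.184) and Col11a1 (0.102), which are best known from cartilage, bone and tendon. The median coefficient of variation over the 40 genes was 16.9% in the treated knockout, 16.7% in the saline knockout and 13.4% in FVB. Many neighbours in the order of levels, such as Lamb2 and Lamb1, overlap over the libraries.

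**Figure D1:**
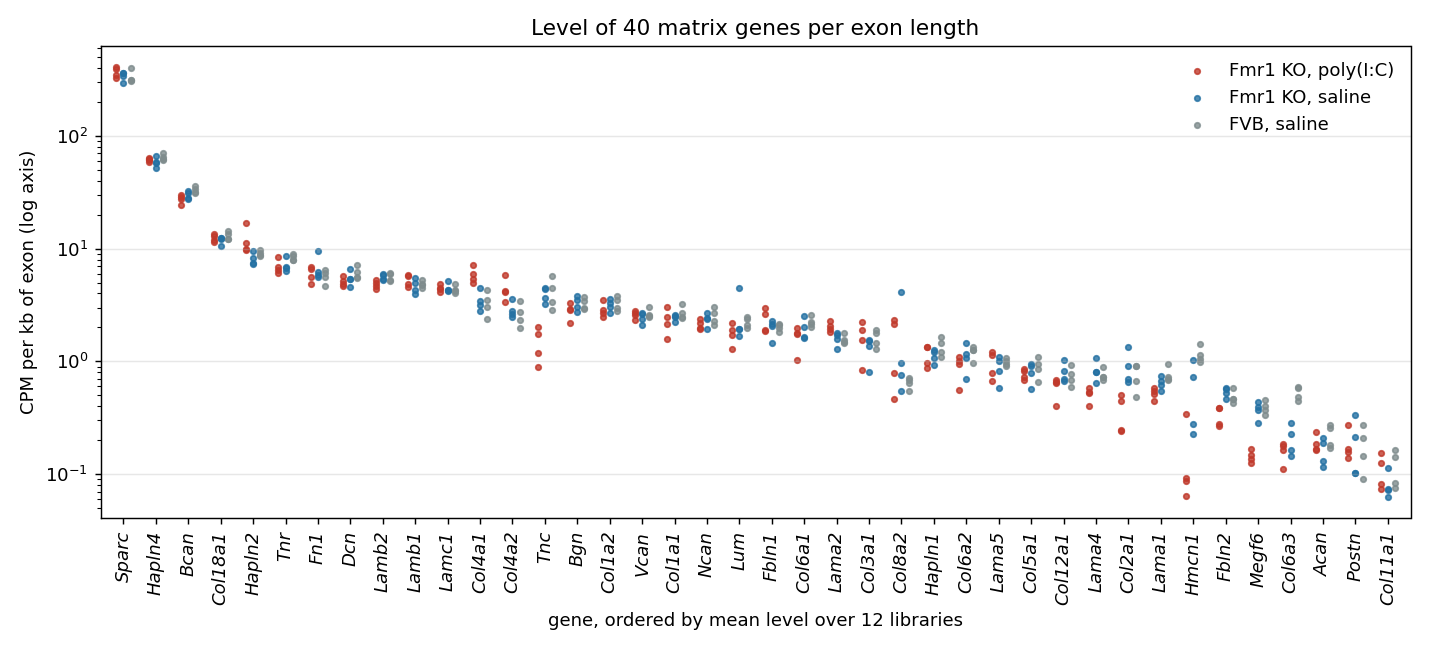
Level of the 40 matrix genes in CPM per kb of exon, on a log axis, ordered by the mean over 12 libraries; points are libraries coloured by group. Sparc stands far above the other genes, Hapln4 and Bcan follow, and Acan, Postn and Col11a1 are lowest.

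The comparisons touched different numbers of these genes. The members were chosen with earlier results of these data known, so a share above that of all genes cannot show enrichment. A gene is said to have risen, fallen or changed where edgeR's quasi-likelihood test gave a Benjamini-Hochberg adjusted p under 0.05 over all 19166 genes. Between treated and saline knockout 5 of the 40 fell and 0 rose, or 12.5%, against 2.87% of all tested genes (1.06% lower and 1.81% higher). Among the members 12 had an unadjusted p under 0.05 there, beside 2973 of all 19166 tested genes. DESeq2 called 4 members higher and 6 lower, and limma-voom 1 higher and 5 lower. For these tools the share of all genes is not given here. In the treated knockout against FVB 3 rose and 7 fell, or 25% against 7.05% of all tested genes (3.81% higher and 3.24% lower). In the saline knockout against FVB 1 fell, or 2.5% against 1.53% (0.72% lower and 0.814% higher), a share near that of all genes. The median log2 fold change of the members was −0.10, −0.22 and −0.08 in these comparisons, beside −0.0017, 0.0010 and 0.0033 over all tested genes. The libraries of the 2 groups did not overlap for 9 members in treated against saline knockout (22.5% against 9.75% of all genes). They did not overlap for 11 members in the treated knockout against FVB (27.5% against 14.2%) and for 1 in the saline knockout against FVB (2.5% against 7.02%). Each pair of comparisons shares a group, so their counts are not independent. Without the 3 libraries high in Ttr, 1 member was called for treated against saline knockout (Megf6), 2 for the treated knockout against FVB (Megf6 and Col6a3) and 1 for the saline knockout against FVB (Col6a3). Leaving out 1 library gave 2 to 7, 3 to 10 and 1 calls in these comparisons. For fits without some libraries the share of all genes is not given here. The treatment count fell to 2 without treated knockout 3 or 4 or saline knockout 3, and to 3 without treated knockout 2, saline knockout 1 or 2 or FVB 3. The count against FVB fell to 3 without treated knockout 3, 4 without FVB 3 or 4, 5 without treated knockout 4 and 6 without FVB 2.

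**Figure D2:**
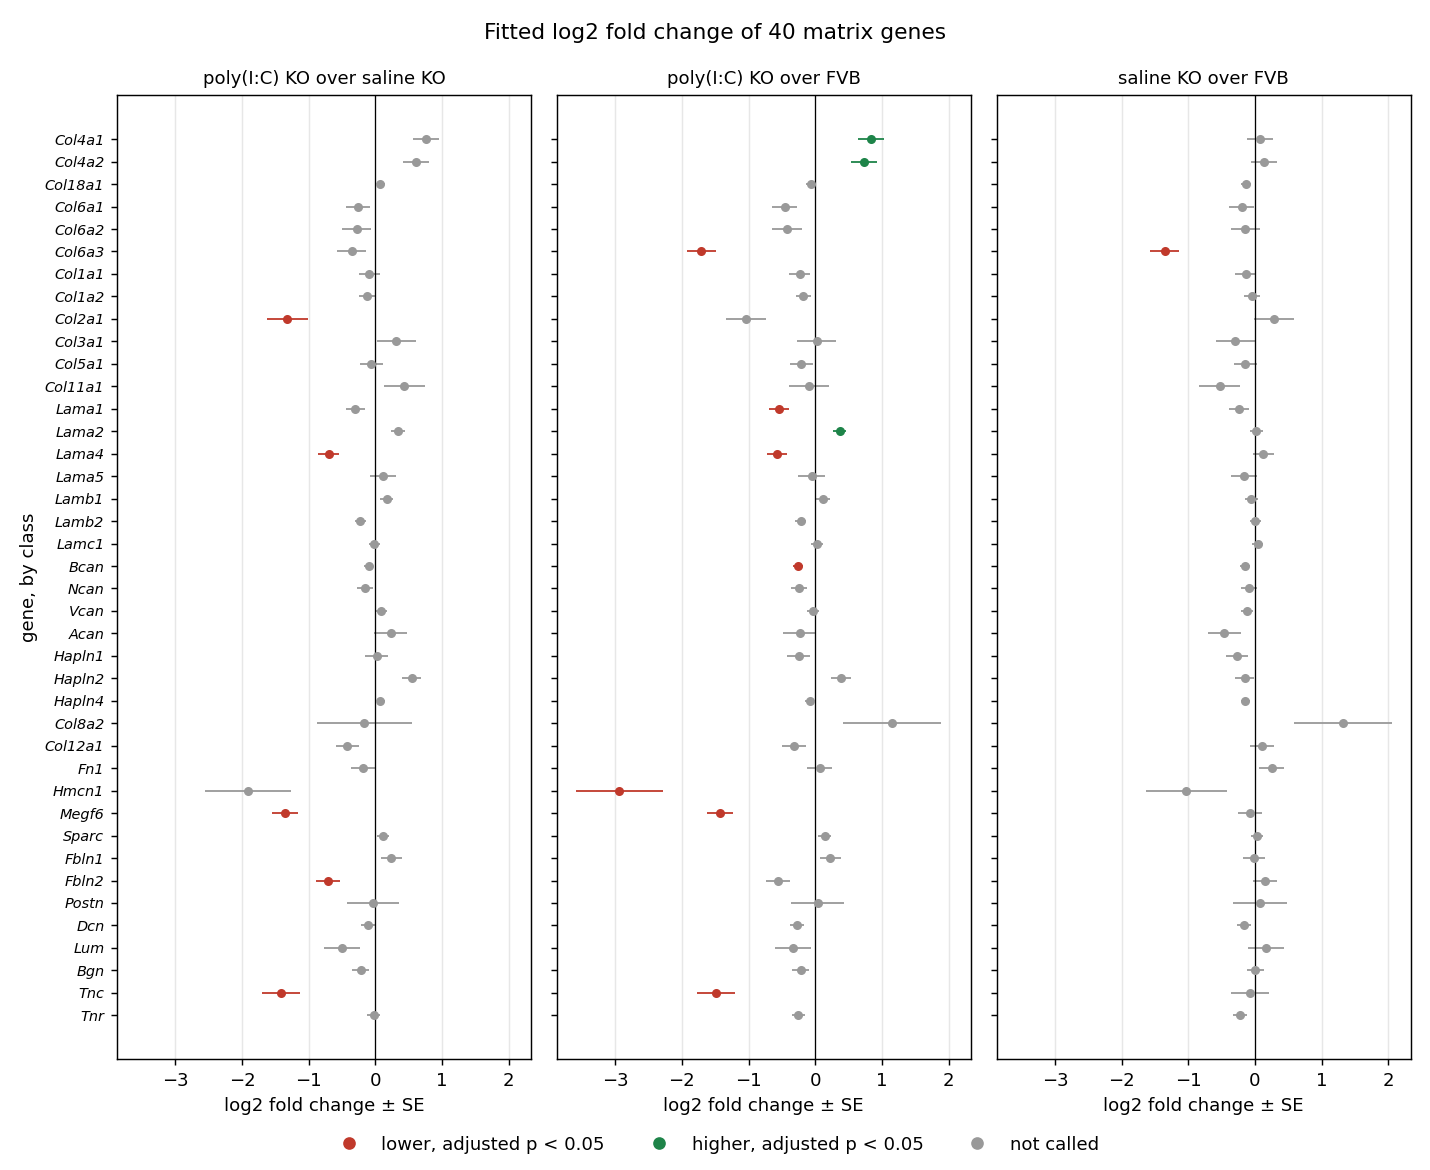
Fitted log2 fold change ± SE of the 40 genes in 3 comparisons; red marks genes called lower, green genes called higher and grey the rest. All 5 called genes of treated over saline knockout lie below 0, Col4a1, Col4a2 and Lama2 are the 3 called higher for treated knockout over FVB, and Col6a3 is the 1 called for saline knockout over FVB.

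Genes of the vascular basement membrane went in both directions. Lama4, the laminin α4 chain of endothelium, was at 6.48, 6.96, 6.27 and 4.88 CPM in the treated knockout, against 12.98, 9.68, 7.69 and 9.67 CPM in the saline knockout and 8.19, 10.8, 8.76 and 8.85 CPM in FVB. Every treated library lay below every other library. Lama4 fell by 0.70 on the log2 scale against the saline knockout (SE 0.156, edgeR, adjusted p = 0.0159) and by 0.57 against FVB (SE 0.156, adjusted p = 0.0312). The saline knockout and FVB differed by 0.13 (95% interval −0.20 to 0.45). The call against the saline knockout ended without treated knockout 4 (0.0626) or saline knockout 1 (0.0703). That against FVB ended without treated knockout 3 (0.0757) or 4 (0.0985) or FVB 2 (0.111), 3 (0.0551) or 4 (0.0594) and with log2 Ttr as a covariate (0.0524). Without the 3 libraries high in Ttr the log2 fold changes were −0.83 (adjusted p = 0.101) and −0.68 (adjusted p = 0.102) by edgeR.

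Collagen IV, the sheet-forming collagen, went the other way. Col4a1, its α1 chain, was at 44.4, 40.5, 53.7 and 37.04 CPM in the treated knockout, against 33.6, 23.5, 21.02 and 25.6 CPM in the saline knockout and 17.8, 32.1, 22.5 and 25.95 CPM in FVB. All treated libraries exceeded all others. Its partner, the α2 chain Col4a2, was at 27.7, 22.4, 38.5 and 27.04 CPM in the treated knockout, against 23.9, 17.3, 16.4 and 18.5 CPM in the saline knockout and 12.97, 22.7, 15.6 and 18.2 CPM in FVB. For this chain treated knockout 2 lay below saline knockout 1 and FVB 2, so the groups overlapped. Against FVB Col4a1 rose by 0.84 (SE 0.191, edgeR, adjusted p = 0.0222) and Col4a2 by 0.74 (SE 0.192, adjusted p = 0.0377) on the log2 scale. Against the saline knockout the differences were 0.76 (edgeR, adjusted p = 0.0582) and 0.61 (adjusted p = 0.131), which missed the threshold. DESeq2 called both there (adjusted p = 2.59e-04 and 0.0138). Col4a1 was also called there by limma-voom (0.0278) and by edgeR in the fit of only these groups (0.0308), without robust estimation (0.0214) and without saline knockout 1 (0.0201) or FVB 1 (0.0237) or 2 (0.0253). The Col4a1 call against FVB ended without treated knockout 3 (0.0576) or FVB 3 (0.0600) or 4 (0.0569) and without the low-count filter (0.0594). That of Col4a2 ended without treated knockout 1 (0.0608), 3 (0.0801) or 4 (0.0652), saline knockout 4 (0.0555) or FVB 1 (0.0793), 3 (0.0917) or 4 (0.0871) and without the low-count filter (0.111), in the fit of only the groups compared (0.0580) and with log2 Ttr as a covariate (0.0740). Without the 3 libraries high in Ttr the differences from FVB were 0.73 (adjusted p = 0.183) and 0.66 (adjusted p = 0.102) by edgeR.

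The collagen IV chains lie head to head on opposite strands of chromosome 8 and are known to share a promoter. Their RefSeq windows, from 250 bases before to 50 bases after each start on GRCm38.p6, overlap by 78 bases. Both are shown, 5′ to 3′ on the gene's own strand, because the starts of these partner chains overlap, and the shared stretch is in capitals. Both annotated start positions lie in that stretch, with 20 bases between them. By these annotated positions each gene runs across the start of the other, so these 20 bases are not a gap between the annotated genes. Where transcription starts in these libraries was not examined. Col4a1 is at chr8:11312777-11313076 on the minus strand and Col4a2 at chr8:11312555-11312854 on the plus strand.
Col4a1: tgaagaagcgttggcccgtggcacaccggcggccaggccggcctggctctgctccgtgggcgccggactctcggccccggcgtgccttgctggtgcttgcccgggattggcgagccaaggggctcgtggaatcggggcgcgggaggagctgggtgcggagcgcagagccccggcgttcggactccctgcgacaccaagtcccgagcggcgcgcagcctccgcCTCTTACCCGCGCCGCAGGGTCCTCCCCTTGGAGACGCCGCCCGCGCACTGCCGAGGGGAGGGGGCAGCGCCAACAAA
Col4a2: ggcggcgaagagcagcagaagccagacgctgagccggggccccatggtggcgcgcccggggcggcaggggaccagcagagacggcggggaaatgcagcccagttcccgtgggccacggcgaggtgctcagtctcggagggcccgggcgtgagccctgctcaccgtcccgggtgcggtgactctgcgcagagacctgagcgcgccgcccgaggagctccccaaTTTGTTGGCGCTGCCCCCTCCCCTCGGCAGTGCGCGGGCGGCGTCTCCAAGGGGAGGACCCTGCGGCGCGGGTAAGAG
The GC content of these windows is 74.0% and 73.7%, against a median of 52.7% over 32851 RefSeq windows. Neither holds TATAAA, the STAT motif TTCNNNGAA or the interferon response motif (GAAA, any 2 bases, GAAA) on either strand. The ratio of Col4a1 to Col4a2 in CPM per kb was 1.37 ± 0.180 in the treated knockout, 1.20 ± 0.0476 in the saline knockout and 1.25 ± 0.0259 in FVB (SD, n = 4 each).

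The other laminin chains split as well. Lama2, the α2 chain that astrocytes, mural cells and fibroblasts make, was at 33.8, 31.4, 37.1 and 29.6 CPM in the treated knockout, against 29.4, 27.9, 25.7 and 21.1 CPM in the saline knockout and 28.9, 25.5, 23.9 and 24.2 CPM in FVB. The treated libraries lay above all others. Lama2 rose against FVB by 0.36 (SE 0.102, edgeR, adjusted p = 0.0354), while the difference from the saline knockout, 0.34 (adjusted p = 0.0809), missed the threshold and was called by DESeq2 (0.0384) and without the low-count filter (0.0151). The call against FVB ended without treated knockout 1 (0.0661) or 3 (0.1251) or FVB 2 (0.0826), 3 (0.0926) or 4 (0.0995) and with log2 Ttr as a covariate (0.0775). Lama1, the α1 chain of the pial basement membrane, was at 5.26, 5.63, 4.99 and 4.34 CPM in the treated knockout, against 9.13, 6.57, 7.02 and 6.72 CPM in FVB, without overlap. It fell by 0.54 (SE 0.147, edgeR, adjusted p = 0.0311), and the saline knockout averaged 6.24 ± 0.819 CPM (SD, n = 4), between them. That call ended without treated knockout 3 (0.0845) or 4 (0.0974) or FVB 1 (0.108) or 3 (0.0542). With the 3 libraries high in Ttr left out, the differences from FVB were 0.31 (adjusted p = 0.288) for Lama2 and −0.61 (adjusted p = 0.129) for Lama1 by edgeR.

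Lamb2, the β2 chain of mature vessels, was at 30.4, 28.5, 31.9 and 26.8 CPM in the treated knockout, against 36.6, 33.03, 35.8 and 32.1 CPM in the saline knockout. The groups did not overlap, but the difference of −0.22 missed the threshold (edgeR, adjusted p = 0.164). Lamb1, the alternative β1 chain, differed by 0.17 in that comparison (95% interval −0.04 to 0.38). The ratio of Lamb1 to Lamb2 in CPM per kb was 0.976 to 1.23 over treated knockout, 0.734 to 1.01 over saline knockout and 0.789 to 0.937 over FVB libraries, with overlap of treated and saline libraries. Lamc1, the γ1 chain that most brain laminins contain, differed by −0.02 between treated and saline knockout (95% interval −0.19 to 0.16), Lama5, the endothelial α5 chain, by 0.11 (−0.31 to 0.53) and Col18a1, the source of endostatin, by 0.06 (−0.09 to 0.22). None of these 3 passed in any comparison.

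Some endothelial and meningeal markers were called lower beside these genes, and no mural cell marker was called. The part of these cells in the results was not tested. The 12 endothelial markers summed to 221 to 275 CPM in the treated knockout, 294 to 378 CPM in the saline knockout and 282 to 346 CPM in FVB, so the treated libraries lay below all others. Tek, Tie1, Slco1a4 and Abcb1a fell between treated and saline knockout, 4 of the 12, or 33.3% against 2.87% of all tested genes. The 12 mural cell markers summed to 195 to 216, 221 to 274 and 175 to 234 CPM in the treated knockout, saline knockout and FVB. For treated against saline knockout edgeR called 0 of them (5 had an unadjusted p under 0.05, DESeq2 called 1 and limma-voom 0). Over all 19166 tested genes 2973 had an unadjusted p under 0.05 in that comparison. The 14 markers of meninges and fibroblasts summed to 85.2 to 134, 104 to 145 and 103 to 147 CPM in the same groups, with overlap. Between treated and saline knockout 3 fell (Slc47a1, Slc22a6 and Crabp2), or 21.4% against 2.87% of all tested genes. Over these 14, fold changes were negative for 9 and positive for 5. No marker of these lists was at 0 in all libraries.

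Megf6 fell with the smallest adjusted p of the members called for treatment. It encodes a secreted protein with many epidermal growth factor-like repeats. Megf6 was at 1.33, 1.16, 1.08 and 0.998 CPM in the treated knockout, against 3.13, 3.43, 2.95 and 2.22 CPM in the saline knockout and 3.61, 2.65, 3.14 and 2.92 CPM in FVB. All treated libraries lay below all others, on 1191 counts over the 12 libraries. It fell by 1.35 on the log2 scale against the saline knockout (SE 0.194, edgeR, adjusted p = 2.16e-04) and by 1.43 against FVB (SE 0.195, adjusted p = 8.70e-05). Both calls held in the 24 alternatives run, with a highest adjusted p of 0.0285 and 0.00452. Among the alternatives, the threshold of an adjusted p under 0.1 could not end a call. The saline knockout and FVB differed by −0.07 (95% interval −0.47 to 0.32).

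Tnc encodes tenascin-C, a glycoprotein of developing and injured brain that Bergmann glia also make. It was at 15.8, 13.5, 6.88 and 9.29 CPM in the treated knockout, against 28.2, 34.8, 33.7 and 25.2 CPM in the saline knockout and 22.3, 44.7, 26.3 and 35.02 CPM in FVB. The highest treated library lay below the lowest of the others. Tnc fell by 1.42 against the saline knockout (SE 0.287, edgeR, adjusted p = 0.0295) and by 1.49 against FVB (SE 0.288, adjusted p = 0.0126). The call against the saline knockout ended without treated knockout 2 (0.0605), 3 (0.0511) or 4 (0.0879) or saline knockout 1 (0.0648), 2 (0.0760) or 3 (0.0839). That against FVB held without any single library. The log2 fold changes without the 3 libraries high in Ttr were −1.21 (adjusted p = 0.330) and −1.35 (adjusted p = 0.107) by edgeR. The 10 markers of astrocytes and Bergmann glia summed to 3667 to 4160.5, 3976 to 4439 and 3849 to 4331 CPM in the treated knockout, saline knockout and FVB. With treatment 1 of them fell (Aqp4), or 10% against 2.87% of all tested genes, and their part in the result was not tested. Tnr, the tenascin-R of oligodendrocytes and nets, was at 89.8 ± 13.6, 91.7 ± 12.7 and 107 ± 7.06 CPM in those groups (SD, n = 4 each) and passed in no comparison. It differed by −0.03 between treated and saline knockout (95% interval −0.25 to 0.19), and its difference from FVB of −0.25 (edgeR, adjusted p = 0.169) was called without treated knockout 1 (0.0240).

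Megf6 and Tnc had the largest falls among the members called for treatment that have a promoter window in the RefSeq table, so their windows are shown, 5′ to 3′ on the gene's own strand. Megf6 is at chr4:154170463-154170762 on the plus strand and the more upstream of the Tnc windows at chr4:64046966-64047265 on the minus strand, both on GRCm38.p6, with a match to TATAAA in capitals.
Megf6: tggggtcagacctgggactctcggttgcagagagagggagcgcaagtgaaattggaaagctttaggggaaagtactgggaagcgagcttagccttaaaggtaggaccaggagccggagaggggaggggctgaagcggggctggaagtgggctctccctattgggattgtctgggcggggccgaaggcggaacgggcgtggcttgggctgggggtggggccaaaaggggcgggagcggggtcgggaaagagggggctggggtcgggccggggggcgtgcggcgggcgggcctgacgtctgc
Tnc: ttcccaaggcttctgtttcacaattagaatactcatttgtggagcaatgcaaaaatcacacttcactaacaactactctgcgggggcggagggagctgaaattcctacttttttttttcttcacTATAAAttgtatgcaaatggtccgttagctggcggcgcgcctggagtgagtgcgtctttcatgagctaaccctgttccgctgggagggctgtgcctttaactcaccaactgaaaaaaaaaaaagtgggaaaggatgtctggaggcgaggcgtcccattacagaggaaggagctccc
Megf6 held none of the 3 motifs and Tnc held TATAAA. Among the 35 windows of the 30 members in the table, TATAAA was in 5 (Col3a1, Postn, Ncan and both of Tnc), the STAT motif in 1 (Lamb2) and the interferon response motif in 0. Over all windows, searched on both strands, these letters were found in 13.6%, 8.3% and 3.44%. A match describes letters and not a binding site, and no match says nothing of a factor.

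Fbln2 and Col2a1 fell with treatment as well. Fbln2, fibulin-2 of vessel walls and basement membranes, was at 2.45, 1.76, 2.47 and 1.69 CPM in the treated knockout, against 3.36, 3.65, 3.72 and 2.95 CPM in the saline knockout and 2.96, 3.68, 2.96 and 2.73 CPM in FVB. The treated libraries lay below all others. It fell by 0.71 against the saline knockout (SE 0.183, edgeR, adjusted p = 0.0420), and the difference from FVB, −0.56, missed the threshold (adjusted p = 0.0756; DESeq2 0.0352). The call ended without treated knockout 2 (0.138), 3 (0.0527) or 4 (0.128), saline knockout 1 (0.0872), 2 (0.110) or 3 (0.119) or FVB 1 (0.0502), 3 (0.0600) or 4 (0.0508) and without the low-count filter (0.0565) and in the fit of only the groups compared (0.0626). Col2a1, a fibrillar collagen best known from cartilage, was at 4.09, 4.67, 2.24 and 2.26 CPM in the treated knockout, against 6.44, 6.05, 8.33 and 12.4 CPM in the saline knockout and 4.44, 8.35, 6.14 and 8.44 CPM in FVB. The treated libraries lay below all saline knockout libraries, while treated knockout 2 exceeded FVB 1. Col2a1 fell by 1.32 against the saline knockout (SE 0.305, edgeR, adjusted p = 0.0356). The difference from FVB, −1.04, missed the threshold (adjusted p = 0.0606; DESeq2 0.0333). The call ended without treated knockout 3 (0.114) or 4 (0.0989), saline knockout 3 (0.0904) or 4 (0.0571) or FVB 3 (0.0569) and without the low-count filter (0.119), in the fit of only the groups compared (0.0538) and with log2 Ttr as a covariate (0.0595). With the 3 libraries high in Ttr left out, the log2 fold changes were −0.68 (adjusted p = 0.398) for Fbln2 and −1.51 (adjusted p = 0.119) for Col2a1 by edgeR.

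**Figure D3:**
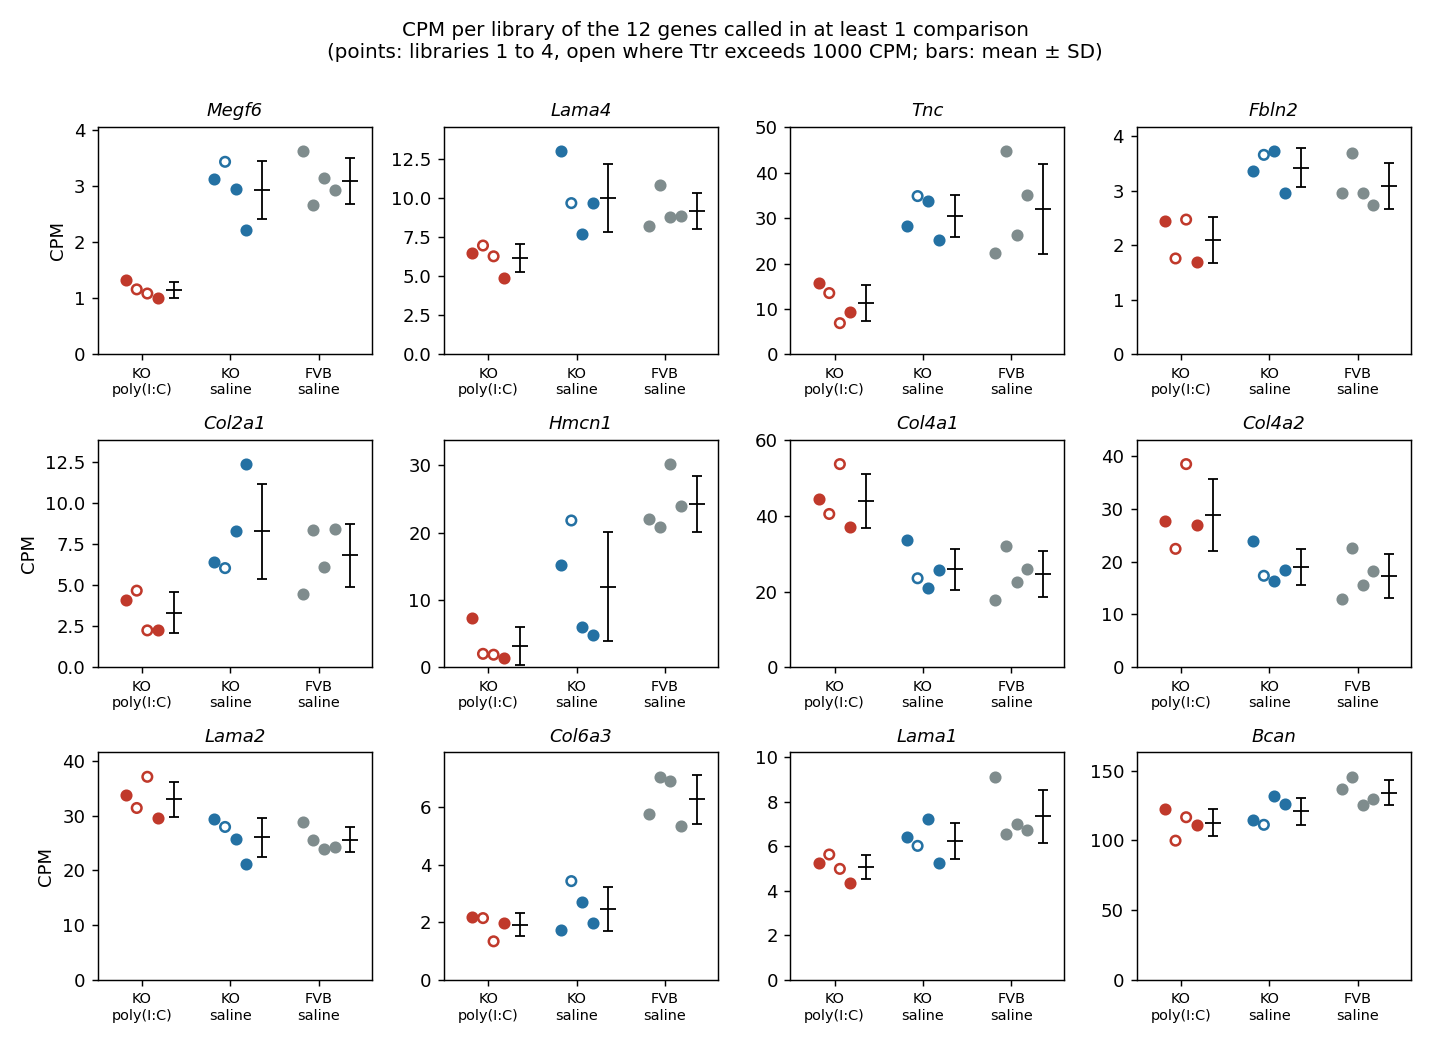
CPM per library of the 12 genes called in at least 1 comparison, with the treated knockout left, the saline knockout in the middle and FVB right; open points are the 3 libraries high in Ttr and bars are mean ± SD. Treated libraries lie below all others for Megf6, Lama4, Tnc and Fbln2 and above all others for Col4a1 and Lama2, and for Col6a3 the 8 knockout libraries lie below the 4 FVB libraries.

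Collagen VI, a beaded filament of fibroblasts and perivascular cells, held the 1 member that differed between saline knockout and FVB. Col6a3, its α3 chain, was at 2.20, 2.14, 1.33 and 1.97 CPM in the treated knockout, at 1.72, 3.43, 2.72 and 1.97 CPM in the saline knockout and at 5.74, 7.05, 6.92 and 5.35 CPM in FVB. No knockout library reached the lowest FVB library. Col6a3 fell by 1.71 in the treated knockout (SE 0.218, edgeR, adjusted p = 4.10e-05) and by 1.35 in the saline knockout (SE 0.216, adjusted p = 0.00190) against FVB, and both calls held in the 24 alternatives run. Treated and saline knockout differed by −0.35 (95% interval −0.82 to 0.11). The partner chains passed in none of the 3 comparisons: Col6a1 was at 7.15 ± 1.85, 8.57 ± 1.86 and 9.84 ± 1.11 CPM and Col6a2 at 7.52 ± 1.99, 9.14 ± 2.59 and 10.1 ± 1.43 CPM in the treated knockout, saline knockout and FVB (SD, n = 4 each). Between saline knockout and FVB they differed by −0.20 (95% interval −0.59 to 0.19) and −0.14 (−0.61 to 0.33). Per kb of exon Col6a3 was 0.106 ± 0.0433 of Col6a1 in the treated knockout, 0.113 ± 0.0539 in the saline knockout and 0.235 ± 0.0394 in FVB. Loss of Fmr1 and other differences between the knockout line and FVB mice cannot be told apart.

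**Figure D4:**
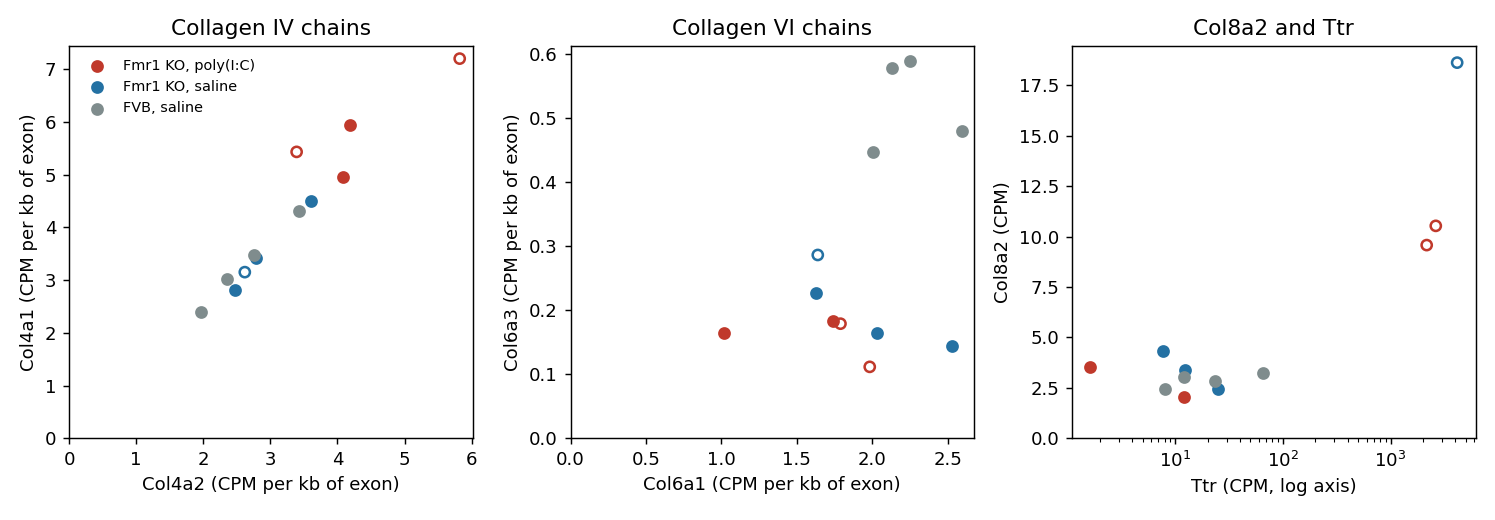
Per library, Col4a1 against Col4a2 (left) and Col6a3 against Col6a1 (middle) in CPM per kb of exon, and Col8a2 against Ttr in CPM with a log axis (right); open points are the 3 libraries high in Ttr. FVB stands above both knockout groups in Col6a3, and Col8a2 is highest in the 3 libraries high in Ttr.

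Fibrillar collagens other than Col2a1 passed in no comparison. Col1a1 and Col1a2, the chains of collagen I, were at 15.1 ± 3.99, 16.1 ± 1.11 and 17.8 ± 2.50 CPM and at 35.7 ± 5.35, 39.1 ± 4.68 and 40.4 ± 5.76 CPM in the treated knockout, saline knockout and FVB (SD, n = 4 each). Between treated and saline knockout they differed by −0.09 (95% interval −0.42 to 0.23) and −0.13 (−0.38 to 0.12). Col3a1, the fine-fibre collagen of vessels and meninges, was at 21.9, 18.7, 15.04 and 8.27 CPM in the treated knockout, against 15.3, 14.9, 7.89 and 13.4 CPM in the saline knockout, with wide overlap. Col5a1 and Col11a1, which help start fibrils, differed by −0.06 (−0.42 to 0.30) and 0.43 (−0.21 to 1.08), and Col12a1, which binds their surface, by −0.42 (−0.79 to −0.05; edgeR, adjusted p = 0.252). The small leucine-rich proteoglycans that coat these fibrils passed in none: decorin (Dcn) was at 29.6 ± 2.75, 31.9 ± 5.04 and 35.8 ± 4.28 CPM, lumican (Lum) at 4.33 ± 0.927, 6.16 ± 3.26 and 5.47 ± 0.594 CPM and biglycan (Bgn) at 17.1 ± 2.76, 19.99 ± 2.94 and 19.9 ± 2.32 CPM. Col8a2, a network collagen known from the corneal endothelium, was at 3.54, 9.58, 10.5 and 2.06 CPM in the treated knockout, 4.30, 18.6, 2.46 and 3.40 CPM in the saline knockout and 3.21, 2.86, 2.43 and 3.06 CPM in FVB. Its high values were those of the 3 libraries high in Ttr, and the part of choroid plexus in them was not tested. Col8a2 was called in no comparison, nor in any of 24 alternatives. Over these its log2 difference from FVB ran from −0.03 to 1.45 in the treated knockout and from 0.23 to 1.60 in the saline knockout.

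The mesh around neurons showed few differences. Bcan was at 123, 99.8, 117 and 111 CPM in the treated knockout, against 137, 146, 125 and 129.6 CPM in FVB, without overlap, and the saline knockout averaged 121 ± 9.74 CPM (SD, n = 4), between them. It fell against FVB by 0.25 on the log2 scale (SE 0.0736, edgeR, adjusted p = 0.0428). That call ended without treated knockout 2 (0.154), 3 (0.0788) or 4 (0.0992) or FVB 1 (0.0916), 2 (0.135) or 4 (0.0660) and with limma-voom (0.0501), without robust estimation (0.0520) and with log2 Ttr as a covariate (0.103). The difference without the 3 libraries high in Ttr was −0.20 (adjusted p = 0.368). The other lecticans, neurocan (Ncan), versican (Vcan) and aggrecan (Acan), passed in none and differed between treated and saline knockout by −0.15 (95% interval −0.41 to 0.11), 0.09 (−0.10 to 0.27) and 0.23 (−0.30 to 0.76). Of the link proteins, Hapln4 differed by 0.07 (−0.08 to 0.22) and Hapln1, the link protein of nets, by 0.02 (−0.33 to 0.37).

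Hapln2, the link protein that oligodendrocytes place at nodes of Ranvier and a genomic neighbour of Bcan, was at 23.4, 26.6, 39.6 and 22.8 CPM in the treated knockout, against 17.5, 19.4, 17.8 and 22.5 CPM in the saline knockout. All treated libraries lay above all saline knockout libraries, by 0.54 on the log2 scale (SE 0.146), but edgeR did not call the difference (adjusted p = 0.0587). It was called by DESeq2 (0.00761) and by edgeR without the low-count filter (0.0198) and without treated knockout 1 (0.0316) or 4 (0.0297) or saline knockout 4 (0.0379). Against FVB, at 21.5 ± 1.02 CPM (SD, n = 4), the treated knockout differed by 0.39 (adjusted p = 0.129). The 8 markers of oligodendrocytes and myelin summed to 5772 to 7705, 6165 to 6795 and 5721 to 6643 CPM in the treated knockout, saline knockout and FVB. With treatment 1 of them fell (Opalin), or 12.5% against 2.87% of all tested genes, and their part in the result was not tested.

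Hmcn1, which encodes the very large matrix protein hemicentin-1, had a coefficient of variation of 89.7% in the treated knockout, the highest of the 40 genes there. It was at 7.26, 1.97, 1.84 and 1.35 CPM in the treated knockout, at 15.2, 21.8, 5.95 and 4.79 CPM in the saline knockout and at 22.04, 20.8, 30.2 and 24.01 CPM in FVB. Saline knockout 1 and 2 lay near FVB and saline knockout 3 and 4 near the treated knockout. Hmcn1 fell in the treated knockout against FVB by 2.94 on the log2 scale (SE 0.655, edgeR, adjusted p = 0.0283). The differences of −1.91 between treated and saline knockout (adjusted p = 0.184) and −1.03 between saline knockout and FVB (0.579) missed the threshold. The treatment difference was called by DESeq2 (0.0384) and without treated knockout 1 (0.0401). The call against FVB ended without treated knockout 2 (0.0795), 3 (0.0922) or 4 (0.0714) or FVB 1 (0.0533), 2 (0.0579), 3 (0.0624) or 4 (0.0611) and with log2 Ttr as a covariate (0.0520), and without the 3 libraries high in Ttr the difference was −2.47 (adjusted p = 0.248).

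The other glycoproteins passed in no comparison. Sparc was at 1395 ± 142, 1289 ± 120.2 and 1262 ± 174 CPM in the treated knockout, saline knockout and FVB (SD, n = 4 each) and differed by 0.11 between treated and saline knockout (95% interval −0.09 to 0.32). Fibronectin (Fn1) was at 69.8 ± 11.1, 79.4 ± 21.8 and 66.8 ± 8.91 CPM, fibulin-1 (Fbln1) at 10.3 ± 2.39, 8.69 ± 1.59 and 8.77 ± 0.627 CPM and periostin (Postn) at 1.60 ± 0.523, 1.64 ± 0.968 and 1.55 ± 0.677 CPM in the same groups.

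Of 201 tested genes in 7 lists of matrix assembly, turnover, receptors and signalling, 6 rose and 5 fell between treated and saline knockout, or 5.47%, against 2.87% of all tested genes. These lists too were chosen with earlier results of these data known, so their shares cannot show enrichment. In the treated knockout against FVB 11 rose and 15 fell, or 12.9%, against 7.05% of all. For saline knockout against FVB 0 of them were called by edgeR (28 at an unadjusted p under 0.05, 1 by DESeq2 and 0 by limma-voom). Over all 19166 tested genes 2299 had an unadjusted p under 0.05 in that comparison. Among 39 proteases and inhibitors 4 rose and 1 fell with treatment, or 12.8% against the 2.87% of all genes, with a median log2 fold change of −0.03 over the list and −0.0017 over all tested genes. Timp1, an inhibitor of matrix metalloproteinases, was at 1.89 ± 0.722 CPM in the treated and 0.616 ± 0.114 CPM in the saline knockout (log2 fold change 1.61, edgeR, adjusted p = 0.00769). Htra1, a secreted serine protease, was at 195 ± 27.5 and 139 ± 7.84 CPM (log2 fold change 0.48, adjusted p = 0.00155). Adamts14, a procollagen protease, rose by 1.97 (0.0118) and Adamts9, a versican protease, by 0.72 (0.0269), both with overlapping groups. Mmp14, a membrane-bound collagenase, fell by 0.45 (0.0258).

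In the other lists, Tinagl1, a basement membrane protein, was at 14.1 ± 3.58 CPM in the treated and 7.04 ± 2.16 CPM in the saline knockout (log2 fold change 1.00, edgeR, adjusted p = 0.0125). Fbln5, an elastic fibre protein, was at 21.7 ± 5.50 and 8.78 ± 3.22 CPM (log2 fold change 1.30, adjusted p = 0.0173). Against FVB its differences in these groups, 0.65 and −0.65, missed the threshold (edgeR, adjusted p = 0.1535 and 0.313). Xylt1, which starts chondroitin sulphate chains, was at 19.6 ± 3.32 and 32.3 ± 4.59 CPM (log2 fold change −0.72, adjusted p = 6.80e-04). Itga1, a collagen-binding integrin chain, fell by 0.58 (0.00502), Itgb4, a laminin-binding integrin chain, by 0.37 (0.0268) and Fkbp10, a collagen chaperone, by 0.57 (0.0479). Of the 31 tested collagens and laminins outside the 40, 2 fell with treatment, or 6.45% against 2.87% of all tested genes. In the treated knockout against FVB 4 rose and 2 fell, or 19.4% against 7.05%. With treatment Col9a1 fell by 1.63 (0.00689) and Col6a6, another collagen VI chain, by 1.61 (0.00785). Col9a1 was at 0.482, 1.51 and 0.754 CPM in the treated knockout, saline knockout and FVB. Against FVB its differences in these knockout groups, −0.64 and 0.99, missed the threshold (edgeR, adjusted p = 0.283 and 0.153). Col11a2 rose in the saline knockout against FVB, at 10.6 ± 1.81 against 6.97 ± 0.450 CPM (log2 fold change 0.60, adjusted p = 0.0215). The treatment calls of Timp1, Htra1, Tinagl1, Xylt1, Itga1, Col9a1 and Col6a6 held without any single library. Single libraries ended those of Adamts14 (saline knockout 1 and 3; 0.0506 to 0.0511), Fbln5 (treated knockout 3, saline knockout 2; 0.0527 to 0.0590) and Itgb4 (treated knockout 2 and 4, saline knockout 1 and 3; 0.0502 to 0.107). They also ended those of Mmp14 (treated knockout 1, 3 and 4, saline knockout 1 and 2; 0.0551 to 0.0908), Adamts9 (treated knockout 3 and 4, saline knockout 2, 3 and 4; 0.0580 to 0.101) and Fkbp10 (treated knockout 1, 2, 3 and 4, saline knockout 1, 2, 3 and 4, FVB 1 and 4; 0.0573 to 0.143), and the call of Col11a2 (saline knockout 2 and 3, FVB 2, 3 and 4; 0.0611 to 0.0756). Without the 3 libraries high in Ttr the treatment calls of Htra1 (0.00218), Xylt1 (8.75e-04), Adamts14 (0.00323) and Col6a6 (0.00900) held and those of the other 9 genes ended. The fit of only the groups compared ended those of Tinagl1 (0.0670), Fbln5 (0.0633) and Itgb4 (0.0538). Upper quartile scaling (0.0521) and no robust estimation (0.0580) ended that of Fkbp10, and that of Col11a2 in the saline knockout against FVB ended with limma-voom (0.0591) and without the 3 libraries high in Ttr (0.0824). In the treated knockout Col11a2 was at 13.4 ± 1.43 CPM, higher than in FVB by 0.94 (edgeR, adjusted p = 9.41e-05), a call that held in all 24 alternatives.

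Further genes were called in the treated knockout against FVB but not against the saline knockout, and these calls held without any single library. Ltbp4, a TGF-beta binding protein of elastic fibres, fell by 1.06 (edgeR, adjusted p = 0.00800) and the receptor Tgfbr1 by 0.53 (0.00308). Itga2, a collagen-binding integrin chain, fell by 1.31 (0.00175), the receptor Gpr37l1 by 0.34 (0.00687), the procollagen protease Adamts2 by 0.44 (0.0116) and the chondroitin sulphotransferase Chst15 by 0.33 (0.00841). Among the collagens outside the 40, Col25a1 fell by 1.35 (0.00871) and Col5a3 rose by 1.09 (0.00606). In the saline knockout against FVB edgeR called none of these genes, but every difference had the same sign. The log2 differences there were −0.997 for Col25a1, −0.684 for Itga2, −0.593 for Ltbp4 and −0.311 for Adamts2. They were −0.286 for Tgfbr1, −0.207 for Chst15, −0.115 for Gpr37l1 and 0.467 for Col5a3. Some alternatives called Col25a1 (DESeq2, 0.0197) and Ltbp4 (edgeR, fit of only these groups, 0.0270) there. With the 3 libraries high in Ttr left out, the treated knockout calls of Ltbp4 (0.00153), Itga2 (0.0362) and Col25a1 (0.0288) against FVB held. Those of Tgfbr1 (0.0588), Gpr37l1 (0.133), Adamts2 (0.240), Chst15 (0.120) and Col5a3 (0.145) ended. Pcolce2, Cemip, Itgav, Smad6, Spp1 and Emilin2, which were called higher, and Chst11, Sdc1, Smad2, Skil and Igsf10, which were called lower, each lost the call without at least 1 library. So did Col27a1, higher by 1.61, without FVB 2 (0.0517), and Col20a1, higher by 0.92, without treated knockout 2 (0.0519).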

How the data were processed

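Per the submitters' processing notes, the authors used Trim Galore, HISAT2 and featureCounts with GRCm39, and they deposited raw read counts for 57010 Ensembl genes in 12 libraries. The sources used here do not give versions, strand setting, annotation release or the treatment of multimapping reads. Per the labels' protocols, libraries came from total RNA with a TruSeq kit. Symbols were added from GENCODE M21 (52029 genes, 99.4% of counts). Exon lengths are unions of its GRCm38 exons, so levels per kb are approximate.

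Genes were kept by filterByExpr (minimum count 10, minimum total 15) and scaled by TMM. They were fitted with edgeR 4.0.16 in R 4.3.3 (robust quasi-likelihood, 3 group means, 9 residual degrees of freedom). The fit was also run, without the filter step, on counts simulated independently per gene from its own fitted dispersions. That run does not test the filter or differences that many genes of a library share, and its outcome is not given here. SEs were derived from the fold change and its F statistic, and CPM are per 1 M TMM-scaled counts of tested genes. Alternatives were DESeq2 1.42.0, limma-voom 3.58.1, RLE and upper quartile scaling, no or a stricter filter, 2-group fits, no robust estimation, a replicate block, an adjusted p under 0.1 and omission of every library in turn. The threshold of an adjusted p under 0.1 could only add calls. Omission of the libraries above 1000 CPM of Ttr, and a Ttr covariate, were chosen after seeing the data. The members and lists were chosen with earlier results of these data known. Named are all 40 members, up to 6 called genes per list and comparison, and called collagens and laminins outside the 40.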

Additional observations from a re-analysis of the deposited data

Results flagged for a closer look

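Of 120 groups of 4 libraries (40 genes in 3 groups), 8 held a library far from the other 3, by Dixon's ratio of its gap to the group's range. Chance flags about 1 in 20 groups. Treated knockout 1 was high in Hmcn1 (7.26 against 1.34 to 1.97 CPM, ratio 0.894) and treated knockout 4 low in Col12a1 (6.18 against 9.77 to 10.5 CPM, ratio 0.837). Saline knockout 1 was high in Fn1 (112 against 65.1 to 72.3 CPM, ratio 0.846) and Lamc1 (43.1 against 34.7 to 35.7 CPM, ratio 0.885). Saline knockout 2, the library with the highest Ttr level, was high in Col8a2 (18.6 against 2.46 to 4.30 CPM, ratio 0.886) and Lum (11.04 against 4.13 to 4.74 CPM, ratio 0.911), and saline knockout 4 was low in Col18a1 (73.5 against 85.9 to 87.3 CPM, ratio 0.898). FVB 1 was high in Sparc (1523 against 1156 to 1185 CPM, ratio 0.922).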

How the results depend on the processing

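Over 24 alternatives no called member changed sign. For saline knockout against FVB 1 member was called in each of them. For treated against saline knockout 5 were called, with 10 by DESeq2, 8 at an adjusted p under 0.1, 1 without the 3 libraries high in Ttr, and 2 to 7 when single libraries were left out. For the treated knockout against FVB 10 were called, with 2 without the libraries high in Ttr, 5 with log2 Ttr as a covariate and 3 to 10 when single libraries were left out. Fewer libraries were fitted where some were left out, and the cause of the other shifts was not tested. The share of all genes called in these settings is not given here. These shifts therefore cannot be read as particular to the members. Of 960 member values in treated against saline knockout, 907 kept their side of the threshold, 32 lost the call and 21 gained one, and against FVB 892, 58 and 10. The titles do not say whether replicate numbers pair the libraries. Correlations of same-numbered deviations ran from −0.0987 to 0.145, and such low values cannot exclude a pairing. With the replicate block 5, 7 and 1 members were called in treated against saline knockout, treated knockout against FVB and saline knockout against FVB. The block ended the calls of Col2a1 for treatment (0.0769) and of Col4a1 (0.0816), Col4a2 (0.122) and Bcan (0.0616) against FVB, and Lama2 gained one for treatment (0.0416).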
